A study of Mus musculus with 102 samples.

Results

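The comparison described here asks whether the response of spinal cord microglia to cisplatin differed between wild type (WT) mice and ABC-imKO mice. For each gene, the log2 fold change from naive to cisplatin in WT was subtracted from that in ABC-imKO, and this difference between fold changes is called the interaction below. A negative value means that the ABC-imKO response was the lower of the 2, and a positive value that it was the higher. It uses 12 of the 17 samples of the series, 3 in each of 4 groups, and covers every gene with enough counts, 17928 of 53715. WT naive (samples 1 to 3) and ABC-imKO naive (1 to 3) were untreated. WT cisplatin (4 to 6) and ABC-imKO cisplatin (4 to 6) had intraperitoneal cisplatin on days 1 and 3 and an intrathecal injection of saline on day 7. The naive groups had no injection of any kind, so the response holds the saline injection along with the drug. The other 5 samples had AIBP in place of saline and are not analysed here. ABC-imKO animals are labelled Abca1fl/fl Abcg1fl/fl Cx3cr1-CreERT2, that is, both transporter genes are floxed and the inducible recombinase is driven by Cx3cr1, a gene of microglia and other mononuclear phagocytes. The WT label names no further allele. RNA came from resident microglia sorted from the lumbar cord. Whether a numbered sample came from a single mouse or from several pooled mice is not stated in the labels, and the p-values cover only the spread among these samples, part of which may be technical.

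ABCA1 and ABCG1 are membrane transporters that pass cholesterol from the cell to apolipoprotein A-I and to high density lipoprotein. Their loss leaves macrophages with more membrane and stored cholesterol, and in such cells receptors that signal from cholesterol-rich membrane domains, Toll-like receptor 4 among them, are known to respond more strongly. Cisplatin, a platinum drug that crosslinks DNA, causes a painful peripheral neuropathy in which spinal microglia take part. Microglia at rest carry a set of homeostatic genes such as P2ry12 and Tmem119, which are commonly reduced when the cells are activated.

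With edgeR's quasi-likelihood test and Benjamini-Hochberg adjustment, 0 of 17928 genes (0%) passed an adjusted p of 0.05 for the interaction, and the smallest adjusted p was 0.339. Before adjustment 1151 genes (6.42%) had p under 0.05, of which 661 (3.69%) had the more negative and 490 (2.73%) the more positive response in ABC-imKO. Other tools gave other counts on the same samples. DESeq2 called 244 genes, 102 more positive and 142 more negative, and limma-voom called 1, Olfml3. Within each genotype the response was plain. In WT 472 genes passed (2.63%), 352 higher after cisplatin (1.96%) and 120 lower (0.669%). In ABC-imKO 827 passed (4.61%), 475 higher (2.65%) and 352 lower (1.96%). These counts move with single samples. Leaving out 1 sample or technical replicate at a time gave 58 (without WT naive 1) to 819 (without WT cisplatin 4) in WT, and 195 (without ABC-imKO naive 2) to 926 (without WT cisplatin 4) in ABC-imKO, and without WT cisplatin 5 and 6 WT gave 2. The larger count in ABC-imKO is not by itself a difference between genotypes, since that difference is what the interaction tests.

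**Figure D1:**
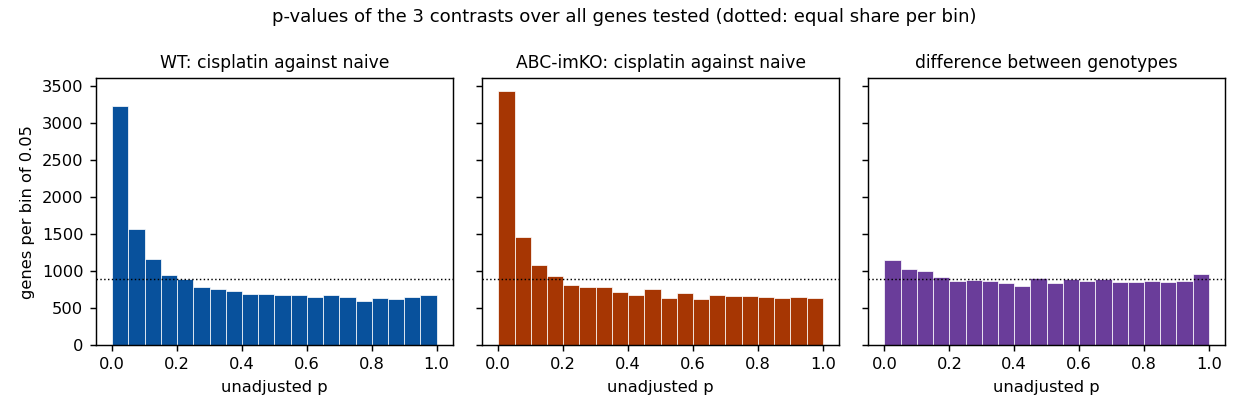
Histograms of unadjusted p-values over the 17928 genes tested, with p on the horizontal axis in bins of 0.05 and the number of genes on the vertical axis, for the cisplatin response in WT, in ABC-imKO and for the difference between them. The lowest bin holds 3224, 3431 and 1151 genes, and the other bins of the difference hold 801 to 1026.

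Of the genes called in both genotypes, 222 were higher in both and 56 lower in both, and 0 went opposite ways. The median interaction was 0.006 for those higher in both and -0.16 for those lower in both. The 95% interval of the interaction lay within 2-fold either way for 149 of the 222 and for 23 of the 56. The precision depended on abundance. The median SE of the interaction was 0.32 log2 units for genes at 100 to 1000 CPM (a gene's counts scaled to a common library size), 0.51 at 10 to 100 and 1.83 at 1 to 10. Of 9267 genes with a group mean of at least 10 CPM, 23.8% had an interval within 2-fold, so for most genes a 2-fold difference between the responses was not excluded by these samples.

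At 10 CPM or more, 586 of 9267 genes (6.32%) had an unadjusted p under 0.05, 316 more positive and 270 more negative in ABC-imKO. The excess of more negative genes over all genes tested was thus not seen here. The median interaction of the 9267 was 0.01, against -0.045 over all genes tested. The 586 genes showed several shapes. In 223 the level was lower after cisplatin in WT and higher in ABC-imKO, and in 123 the reverse. In 100 it was lower in both and more so in ABC-imKO, and in 37 lower in both and more so in WT. It was higher in both genotypes in the remaining 103, with the larger rise in ABC-imKO in 56 and in WT in 47. Of the 586, 58 were called in WT and not in ABC-imKO, 146 in ABC-imKO and not in WT, 10 in both and 372 in neither (9.90%, 24.9%, 1.71% and 63.5%). Over all 9267 genes these shares were 1.93%, 5.56%, 2.97% and 89.5%. These directions are those of the fitted values, and most of the single responses did not pass on their own.

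**Figure D2:**
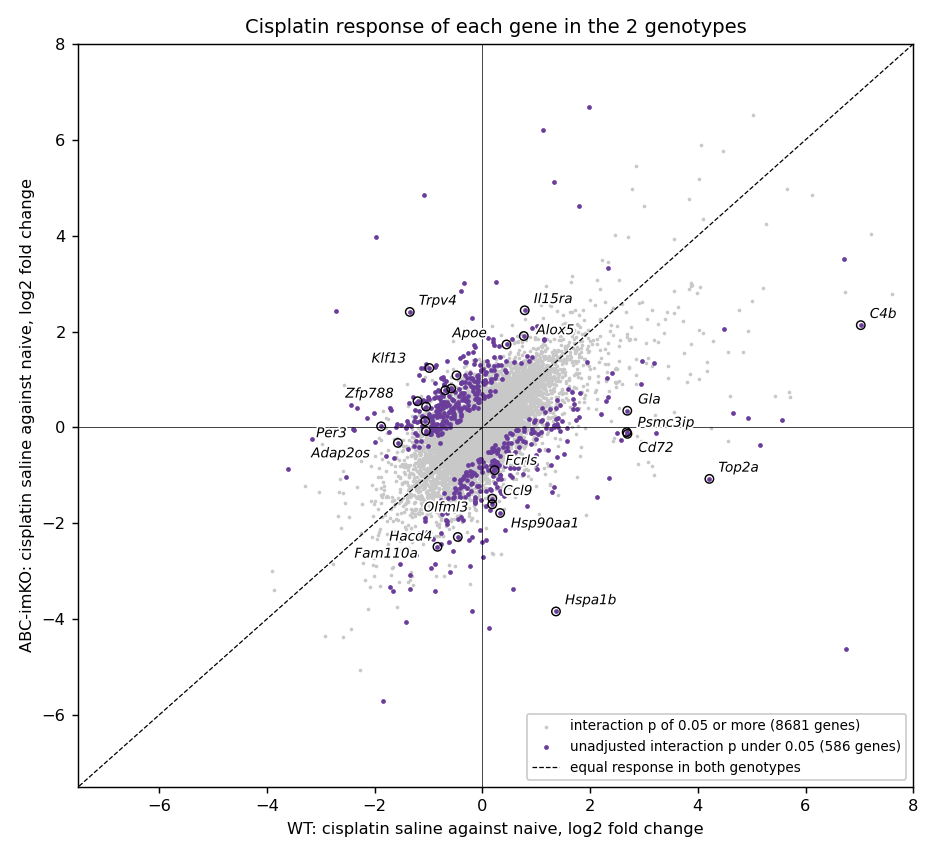
Each point is 1 gene with a group mean of at least 10 CPM. The horizontal axis is the log2 fold change of cisplatin over naive in WT, the vertical axis the same in ABC-imKO, and the dashed line marks equal responses. Purple points are the 586 genes at an unadjusted interaction p under 0.05. Ringed genes are described in the text, with Olfml3, Hspa1b and Ccl9 below the line and Klf13, Trpv4 and Il15ra above it.

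Total counts lay between 51.5 M and 74.5 M in the 12 samples (M, mega; 62.4 in the median sample), with 18791 to 21462 genes detected and 1.53 to 3.04% of counts from mitochondrial genes. The ABC-imKO cisplatin samples were the deepest, at 71.9 to 74.5 M. WT cisplatin 5 and 6 stood apart from the other libraries in some genes. Ccr2, the chemokine receptor of monocytes, stood at 96.7 and 63.5 CPM there, at 0.324 CPM in WT cisplatin 4 and at 6.8 CPM or less in the other 9 samples. Over 12 monocyte markers the mean log2(CPM + 1), relative to WT naive, was 3.24 and 2.90 in WT cisplatin 5 and 6. It was -0.085 in WT cisplatin 4 and 1.36, 2.19 and 1.86 in ABC-imKO cisplatin 4, 5 and 6. Many interactions below are also given without WT cisplatin 5 and 6. That setting leaves 1 WT cisplatin sample, assumed to vary like the other groups, and it is the cisplatin sample with the lowest monocyte value. Near-identical gene copies (Hspa1a with Hspa1b, C4b with C4a, Rpsa with its processed copies) may share reads, and their split is uncertain.

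The floxed genes come first. Abca1 (chromosome 4, 53030787 to 53159895) stood at 84.2, 112 and 103 CPM in naive WT samples and 61.9, 77.2 and 61.2 in WT cisplatin, and at 102, 76.5 and 65.1 in ABC-imKO naive and 99.6, 57.3 and 60.2 in ABC-imKO cisplatin. WT cisplatin lies below WT naive without overlap, the ABC-imKO groups overlap each other and both WT groups, and the interaction was 0.41 ± 0.35 (95% interval -0.36 to 1.18; unadjusted p = 0.26, adjusted p = 0.91). Abcg1 (chromosome 17, 31057675 to 31117988) stood at 154, 89.9 and 103 CPM in naive WT samples and 42.8, 57.2 and 66.5 in WT cisplatin, and at 40.3, 64.6 and 55.2 in ABC-imKO naive and 69.2, 51.5 and 54.5 in ABC-imKO cisplatin. WT naive lay above all 3 other groups, which overlap one another. Its response was -1.06 ± 0.26 (adjusted p = 0.058) in WT and 0.13 ± 0.26 (adjusted p = 0.86) in ABC-imKO, and the interaction was 1.19 ± 0.37 (95% interval 0.38 to 2.01; unadjusted p = 0.0078, adjusted p = 0.62). Counts were made per whole gene, with the exons that are not floxed among them, and neither set of values measures the deletion. Cx3cr1, the fractalkine receptor gene that drives the recombinase, had an interaction of -0.19 ± 0.28 (95% interval -0.80 to 0.41). It fell after cisplatin in ABC-imKO (-0.86 ± 0.20, adjusted p = 0.033) and had -0.66 ± 0.20 (adjusted p = 0.1) in WT.

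Homeostatic microglia genes were lower after cisplatin in both genotypes, and more of them passed in ABC-imKO. Of 22 tested, 6 fell in WT and 16 in ABC-imKO, beside 0.669% and 1.96% of all genes. The median log2 fold changes were -0.72 and -1.36 (all genes tested, 0.00 and -0.02). For the interaction, 0 passed, 6 were more negative and 0 more positive in ABC-imKO at an unadjusted p under 0.05, and 19 of 22 values were negative, with a median of -0.51 against -0.045 over all genes. Without WT cisplatin 5 and 6 the median was -0.83, with 13 more negative at that p. Over all genes, with all 12 samples, 3.69% were more negative and 2.73% more positive at an unadjusted p under 0.05. List counts at that p, here and below, stand beside these shares. Both ways together, 5.62% were below that p at 10 to 100 CPM, 7.99% at 100 to 1000 and 12.95% at 1000 or more. Abundant genes thus stand beside larger shares. In these bulk samples, fewer cells of a type and less RNA per cell cannot be told apart.

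Olfml3 (chromosome 3, 103722222 to 103738001), a secreted protein characteristic of microglia, had the smallest p of all genes. It stood at 3236, 3281 and 3184 CPM in naive WT samples and 3399, 3460 and 4157 in WT cisplatin, and at 3418, 4125 and 4082 in ABC-imKO naive and 1063, 1089 and 1670 in ABC-imKO cisplatin. The 9 samples of the other groups lie between 3184 and 4157 CPM, and the ABC-imKO cisplatin samples lie far below all of them. The response was 0.18 ± 0.18 (adjusted p = 0.65) in WT and -1.60 ± 0.18 (adjusted p = 0.0024) in ABC-imKO. The interaction was -1.79 ± 0.26 (95% interval -2.35 to -1.23; unadjusted p = 1.9e-05, adjusted p = 0.34), and it ranged from -2.03 to -1.67 when each sample was left out in turn. Fcrls (chromosome 3, 87250758 to 87263738), an Fc receptor-like scavenger receptor of microglia, stood at 1992, 2082 and 1749 CPM in naive WT samples and 1935, 2369 and 2518 in WT cisplatin, and at 2276, 2940 and 2570 in ABC-imKO naive and 1348, 1349 and 1497 in ABC-imKO cisplatin. Again the ABC-imKO cisplatin samples were the lowest, with no overlap. The interaction was -1.12 ± 0.21 (95% interval -1.58 to -0.66; unadjusted p = 0.0002, adjusted p = 0.38), from 0.23 ± 0.15 (adjusted p = 0.45) in WT and -0.89 ± 0.15 (adjusted p = 0.0079) in ABC-imKO.

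The remaining 4 homeostatic genes below that p were Bin1 (-1.31 ± 0.38), a membrane-bending adaptor, Cst3 (-0.89 ± 0.29), the protease inhibitor cystatin C, Tmem119 (-0.65 ± 0.25), a microglial surface protein, and the fructose transporter gene Slc2a5 (-1.12 ± 0.47). Cst3 stood at 33364, 33411 and 26279 CPM in naive WT samples and 18386, 10324 and 15883 in WT cisplatin, and at 26497, 28300 and 31311 in ABC-imKO naive and 8908, 6555 and 6864 in ABC-imKO cisplatin. It fell in both genotypes, and the ABC-imKO cisplatin samples lie below the lowest WT cisplatin sample. Tmem119 stood at 5769, 5587 and 4593 CPM in naive WT samples and 3885, 2627 and 3194 in WT cisplatin, and at 4544, 5354 and 4845 in ABC-imKO naive and 1818, 1640 and 2258 in ABC-imKO cisplatin. Its ABC-imKO cisplatin samples also lie below all WT cisplatin samples. Other members of the list, named after their values were seen, did not reach that p. Crybb1 (-1.09 ± 0.70), a crystallin, Adgrg1 (-0.81 ± 0.45), an adhesion receptor, Siglech (-0.53 ± 0.37), a sialic acid receptor, Gpr34 (-0.50 ± 0.33), a lysophosphatidylserine receptor, and Selplg (-0.47 ± 0.32), a selectin ligand, were negative. P2ry12, the ADP receptor that guides microglial processes, fell in both genotypes, with -1.77 ± 0.28 (adjusted p = 0.01) in WT and -1.96 ± 0.28 (adjusted p = 0.0043) in ABC-imKO, and its interaction was -0.20 ± 0.38 (95% interval -1.04 to 0.65), and -0.66 without WT cisplatin 5 and 6. P2ry13, a related ADP receptor, had -0.05 ± 0.20 (95% interval -0.50 to 0.40), and Csf1r, the receptor on which microglial survival depends, 0.08 ± 0.26 (95% interval -0.50 to 0.65). For P2ry13 and Csf1r the interval excludes a difference of 2-fold in either direction.

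Microglia lineage transcription factors had a median interaction of -0.28, with 0 of 18 below an unadjusted p of 0.05, and Klf12 (-1.39 ± 0.63) and Tal1 (-1.02 ± 0.56) had the smallest p. In ABC-imKO 3 of them fell (1.96% of all genes). Among 16 ligands, receptors and SMADs of the TGF-beta pathway, which maintains microglial identity, the median was -0.31 and 1 was below that p, the ligand gene Tgfb2, at 0.316 CPM or less in every sample. Nrros, which presents latent TGF-beta on microglia, had -0.48 ± 0.25, and the pseudoreceptor gene Bambi -1.60 ± 0.86.

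**Figure D3:**
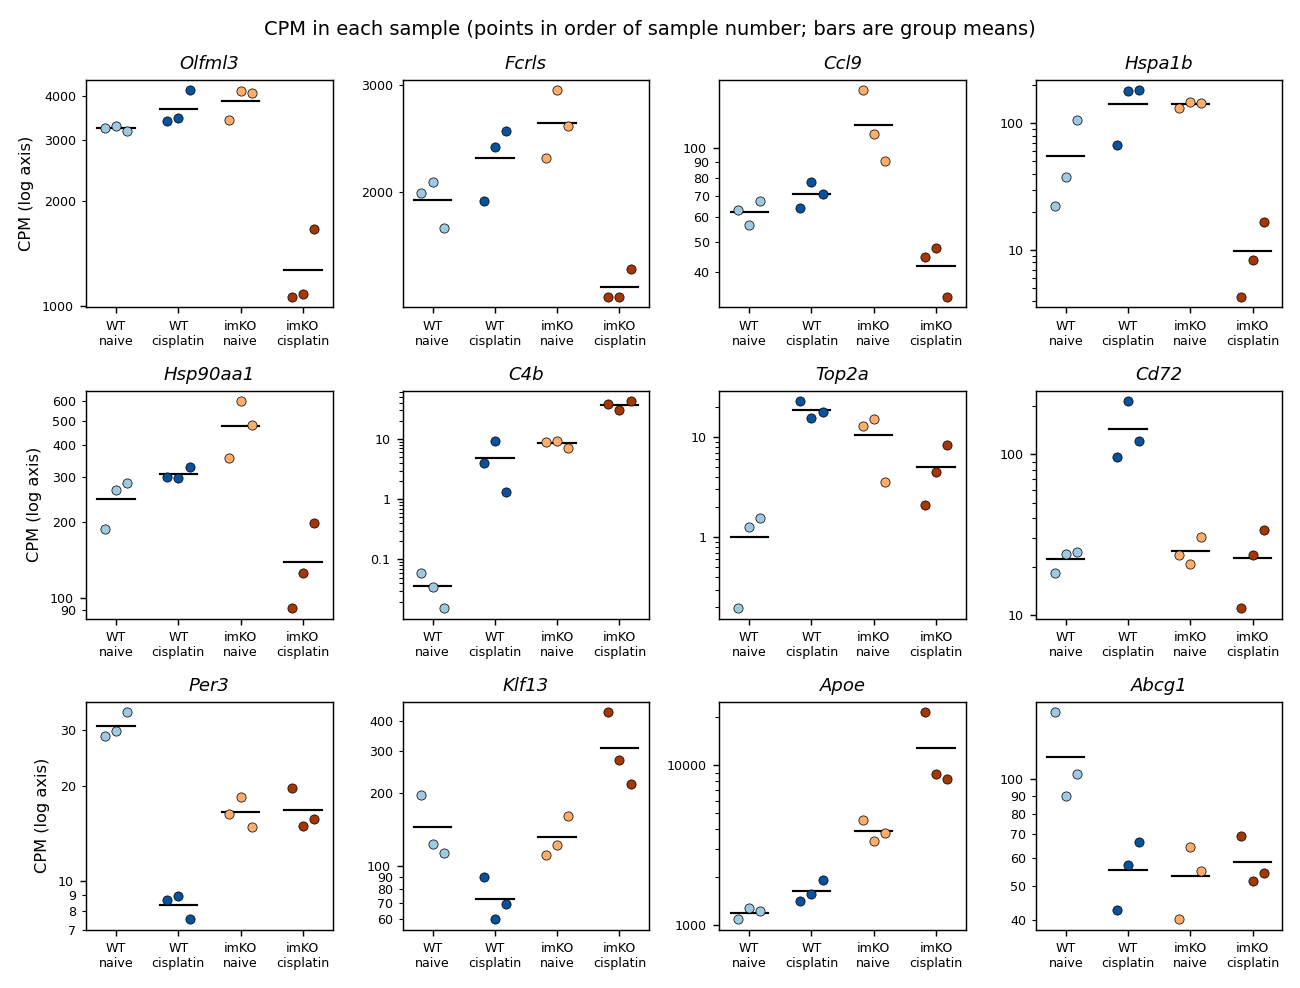
CPM on a log axis in each of the 12 samples for 12 genes. Points are samples in order of their numbers (WT and ABC-imKO naive 1 to 3, cisplatin 4 to 6) and bars are group means. Olfml3, Fcrls, Ccl9, Hspa1b and Hsp90aa1 are lowest in ABC-imKO cisplatin, Cd72 is highest in WT cisplatin, and Per3 is lowest in WT cisplatin.

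Heat shock proteins and their co-chaperones, mostly cytosolic and with the mitochondrial Hspd1 and Hspe1 among them, were next. Of 23 tested, 9 were more negative in ABC-imKO at an unadjusted p under 0.05 and 0 more positive, the median interaction was -0.63, and 0 passed after adjustment. In ABC-imKO 5 fell after cisplatin (1.96% of all genes) and 0 rose, and in WT 2 rose (1.96%) and 0 fell. Without WT cisplatin 5 and 6 the median was -0.29, with 5 more negative. Heat shock proteins are chaperones that keep other proteins folded, and their genes are induced together by heat shock factor 1 (HSF1), which binds inverted repeats of GAA in promoters.

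Hspa1b (chromosome 17, 34956436 to 34959238), an inducible HSP70, stood at 22.4, 37.8 and 106 CPM in naive WT samples and 67.6, 178 and 182 in WT cisplatin, and at 132, 146 and 143 in ABC-imKO naive and 4.27, 8.43 and 16.7 in ABC-imKO cisplatin. The ABC-imKO cisplatin samples are the lowest of the 12, below every naive sample of either genotype. WT cisplatin overlaps WT naive. The response was 1.37 ± 0.60 (adjusted p = 0.26) in WT and -3.84 ± 0.66 (adjusted p = 0.0094) in ABC-imKO, and the interaction was -5.21 ± 0.88 (95% interval -7.14 to -3.28; unadjusted p = 8.8e-05, adjusted p = 0.38). Its neighbour Hspa1a, a near-identical copy, stood at 74.3, 159.6 and 254 CPM in naive WT samples and 164, 255 and 308 in WT cisplatin, and at 190.1, 648 and 698 in ABC-imKO naive and 55.8, 10.9 and 81.5 in ABC-imKO cisplatin, with an interaction of -3.95 ± 0.98. ABC-imKO naive 1 is lower here than naive 2 and 3, as it is in other heat shock genes. Hsp90aa1 (chromosome 12, 110690605 to 110702728), the inducible HSP90, stood at 188, 267 and 284 CPM in naive WT samples and 301, 297 and 330.4 in WT cisplatin, and at 356, 597 and 482 in ABC-imKO naive and 91.5, 126 and 199 in ABC-imKO cisplatin. The ABC-imKO naive samples lie above all others and the ABC-imKO cisplatin samples below nearly all, overlapping WT naive. The interaction was -2.12 ± 0.40 (95% interval -2.99 to -1.25; unadjusted p = 0.00022, adjusted p = 0.38).

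Further members below that p were Hspb1 (-4.31 ± 1.08), a small heat shock protein, the DnaJ co-chaperones Dnajb1 (-1.86 ± 0.58), Dnaja1 (-1.50 ± 0.54) and Dnajb4 (-0.74 ± 0.28), the HSP110 gene Hsph1 (-2.06 ± 0.80) and the mitochondrial HSP10 gene Hspe1 (-1.18 ± 0.41). Without WT cisplatin 5 and 6 Hspa1b had -4.13, Hsph1 -1.02 and Hspe1 -0.48. Hspe1 differs from the rest in shape, since it rose in WT (1.36 ± 0.30, adjusted p = 0.036) and had 0.18 ± 0.29 (adjusted p = 0.82) in ABC-imKO. The mean log2(CPM + 1) of the 23 genes, relative to WT naive, was 0.11, 0.81 and 0.46 in WT cisplatin 4, 5 and 6 and -0.56, -0.48 and -0.016 in ABC-imKO cisplatin 4, 5 and 6. In ABC-imKO naive it was -0.29, 0.39 and 0.64, so that group spans a range as wide as the gap. Immediate early genes, transcription factors induced within minutes by stimulation and by cell isolation, had a median interaction of -0.74 over 27 genes, with 1 below that p, the nuclear regulator gene Ier5 (-1.46 ± 0.56), and Gadd45b at -2.85 ± 1.33. Their samples spread widely, and ABC-imKO naive 1 was again the lowest of its group, with a list score of -1.24 against 0.14 and 0.49. The part of sample handling in these values was not tested.

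Promoters of 3 heat shock genes below that p show how the HSF1 motif is placed in them. Hsp90aa1, whose p was smaller than that of Hspb1 and Dnajb1, has no entry in the promoter table used here. They are the 250 bases before the annotated start in RefSeq, on GRCm38.p6, written 5′ to 3′ on the gene's strand, and capitals mark a match to GAANNTTC. Hspa1b is at chr17:34959239-34959488 on the minus strand, Hspb1 at chr5:135887669-135887918 on the plus strand and Dnajb1 at chr8:83607925-83608174 on the plus strand. Hspa1a, at chr17:34972157-34972406, is identical to Hspa1b at 247 of 250 bases and carries the same match.
Hspa1b: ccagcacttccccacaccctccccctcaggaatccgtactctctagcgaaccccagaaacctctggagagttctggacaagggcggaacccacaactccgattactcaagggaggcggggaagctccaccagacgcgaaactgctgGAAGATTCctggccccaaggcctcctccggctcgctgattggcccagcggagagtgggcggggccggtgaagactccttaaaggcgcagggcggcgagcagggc
Hspb1: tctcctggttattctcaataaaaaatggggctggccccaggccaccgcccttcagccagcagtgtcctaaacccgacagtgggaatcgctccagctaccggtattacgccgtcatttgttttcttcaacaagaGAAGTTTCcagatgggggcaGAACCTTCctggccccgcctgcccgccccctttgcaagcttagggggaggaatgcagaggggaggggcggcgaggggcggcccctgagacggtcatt
Dnajb1: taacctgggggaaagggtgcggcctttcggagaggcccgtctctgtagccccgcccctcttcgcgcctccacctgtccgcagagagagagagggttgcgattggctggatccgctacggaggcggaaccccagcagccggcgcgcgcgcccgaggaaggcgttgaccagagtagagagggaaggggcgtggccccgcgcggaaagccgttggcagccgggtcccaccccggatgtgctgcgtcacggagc
Hspa1b holds 1 match, Hspb1 holds 2 and Dnajb1 none. The search took GAANNTTC and TTCNNGAA, each of which reads the same on both strands, with overlaps allowed. A match to either was found in 12.9% of all 27025 promoters given. Of the 23 heat shock genes 18 had an entry, and 7 held a match (38.9%). They were 6 of the 8 with an entry that were more negative at an unadjusted p under 0.05, and 1 of the other 10. The 6 include both Hspa1a and Hspa1b, which share nearly the same window and possibly reads. Whether the motif goes with the interaction was not tested. A match is a description of the letters in this window and shows no binding.

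Ccl9 (chromosome 11, 83572919 to 83578636), a chemokine of the CC family, stood at 63.3, 56.5 and 67.4 CPM in naive WT samples and 64.3, 77.5 and 71.1 in WT cisplatin, and at 153, 111 and 90.3 in ABC-imKO naive and 44.8, 47.9 and 33.4 in ABC-imKO cisplatin. Levels were higher in ABC-imKO naive than in WT naive and lowest in ABC-imKO cisplatin, and none of these groups overlap. The response was 0.18 ± 0.22 (adjusted p = 0.72) in WT and -1.49 ± 0.22 (adjusted p = 0.0048) in ABC-imKO, and the interaction -1.67 ± 0.31 (95% interval -2.35 to -0.999; unadjusted p = 0.00018, adjusted p = 0.38). Over the 24 inflammatory cytokines and chemokines tested the median interaction was -1.01, with 5 more negative and 1 more positive at an unadjusted p under 0.05. Csf1, the growth factor of microglia, stood at 9.08, 8.22 and 10.9 CPM in naive WT samples and 14.2, 27.9 and 34.1 in WT cisplatin, and at 22, 19.5 and 29.1 in ABC-imKO naive and 15.3, 24 and 27.4 in ABC-imKO cisplatin, with -1.52 ± 0.50 (-0.69 without WT cisplatin 5 and 6). The neutrophil chemokine gene Cxcl2 had -5.52 ± 2.18, with wide spread in both ABC-imKO groups. Cxcl10, which attracts T cells, and Cxcl1, at 1.81 CPM or less in every sample, were the other 2 below that p, and Il18 (0.73 ± 0.32) was the 1 more positive member. The median of the list was -0.71 without those samples.

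Cd72 (chromosome 4, 43446462 to 43454628), an inhibitory receptor for semaphorin 4D, shows the reverse shape, a response seen in WT. It stood at 18.3, 23.8 and 24.5 CPM in naive WT samples and 96.8, 214 and 121 in WT cisplatin, and at 23.6, 20.7 and 30.7 in ABC-imKO naive and 11, 23.5 and 33.7 in ABC-imKO cisplatin. WT cisplatin lies above all other samples, and the other 3 groups overlap. It rose in WT (2.69 ± 0.41, adjusted p = 0.0092) and had -0.14 ± 0.39 (adjusted p = 0.91) in ABC-imKO, and the interaction was -2.83 ± 0.56 (95% interval -4.05 to -1.60; unadjusted p = 0.00033, adjusted p = 0.38). It was -2.26 without WT cisplatin 5 and 6. Psmc3ip, a cofactor of meiotic recombination, had the same shape, with 2.68 ± 0.42 (adjusted p = 0.0099) in WT, -0.10 ± 0.39 (adjusted p = 0.94) in ABC-imKO and an interaction of -2.78 ± 0.57. Gla, the lysosomal alpha-galactosidase, rose in WT (2.69 ± 0.38, adjusted p = 0.0066) and had 0.35 ± 0.35 (adjusted p = 0.67) in ABC-imKO, giving -2.35 ± 0.51. Its ABC-imKO naive samples, at 10.5 to 12.6 CPM, were already above WT naive at 2.44 to 5.01 CPM. Fam110a and Hacd4, an enzyme of fatty acid elongation, fell in ABC-imKO (-2.49 ± 0.25, adjusted p = 0.0016 and -2.29 ± 0.29, adjusted p = 0.0032), and their interactions were -1.66 ± 0.34 and -1.83 ± 0.39.

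C4b (chromosome 17, 34728380 to 34743882), the complement component C4, stood at 0.0585, 0.0349 and 0.0155 CPM in naive WT samples and 4.03, 9.15 and 1.34 in WT cisplatin, and at 9.09, 9.13 and 7.19 in ABC-imKO naive and 38.1, 30.8 and 42.6 in ABC-imKO cisplatin. WT naive held 6 counts in all 3 samples together, so its fitted WT fold change of 7.03 rests on nearly empty samples. The level was higher after cisplatin in both genotypes, with no overlap within either, and the highest values are those of ABC-imKO cisplatin. The interaction, a difference of log2 fold changes, was -4.89 ± 0.92 (95% interval -6.92 to -2.87; unadjusted p = 0.00022, adjusted p = 0.38), although the rise in CPM was larger in ABC-imKO. Of 13 complement genes 2 were more negative at that p, C4b and C3, and the list median was -0.13. Cfp, properdin, had -4.84 ± 2.38, above that p, with 87.2 and 31 CPM in WT cisplatin 5 and 6 and 12.9 CPM or less elsewhere, and 2.82 without those samples. C3 was at 0 in every WT naive sample, at 0.172, 7.26 and 2.27 CPM in WT cisplatin and at 0.599 to 4.54 CPM in the ABC-imKO samples. C1qa (-0.21 ± 0.27) and C1qb (0.11 ± 0.32), subunits of C1q, are abundant in microglia and gave intervals within 2-fold.

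**Figure D4:**
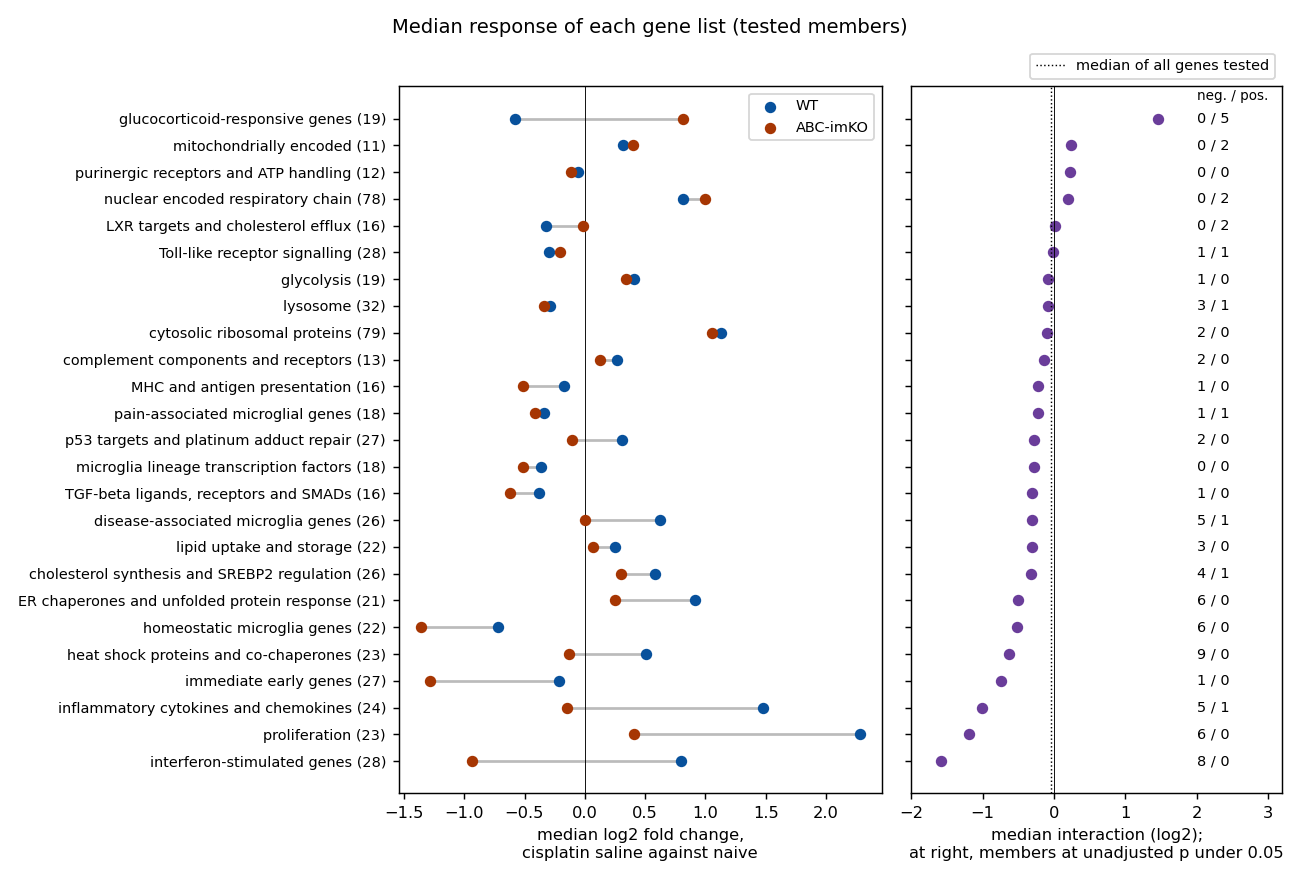
Median over the tested members of each pathway list (number in brackets). The left panel gives the median log2 fold change of cisplatin over naive in WT and ABC-imKO, the right panel the median interaction with the median of all genes as a dotted line, and the number of members more negative and more positive at an unadjusted p under 0.05. Glucocorticoid-responsive genes lie highest, at 1.46, and interferon-stimulated genes lowest, at -1.58.

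Proliferation genes rose after cisplatin in WT in part. Of 23 tested, 7 rose in WT (1.96% of all genes) and 1 in ABC-imKO (2.65%), with medians of 2.28 and 0.40. For the interaction 0 passed, 6 were more negative and 0 more positive at an unadjusted p under 0.05, and the median was -1.19 (-0.94 without WT cisplatin 5 and 6, with 2 more negative). Top2a (chromosome 11, 98992943 to 99024189), the topoisomerase of dividing cells, stood at 0.195, 1.27 and 1.54 CPM in naive WT samples and 22.9, 15.6 and 17.7 in WT cisplatin, and at 12.8, 15.3 and 3.58 in ABC-imKO naive and 2.11, 4.51 and 8.41 in ABC-imKO cisplatin. WT cisplatin lies above all other samples, and ABC-imKO naive lies above WT naive. It rose in WT (4.21 ± 0.85, adjusted p = 0.026) and had -1.07 ± 0.75 (adjusted p = 0.49) in ABC-imKO, and the interaction was -5.29 ± 1.12 (95% interval -7.74 to -2.84; unadjusted p = 0.00056, adjusted p = 0.4). Stmn1, a microtubule regulator, had -1.58 ± 0.55, and the mitotic genes Ccnb1, Birc5 and Bub1, each at 9.02 CPM or less in every sample, were also below that p. Bub1 turned from -9.13 to 1.96 without WT cisplatin 5 and 6, and Ccnb1 went from -5.08 to -3.46. Mcm3, a subunit of the replication helicase, rose in WT (1.59 ± 0.22, adjusted p = 0.0066) and had 0.80 ± 0.22 (adjusted p = 0.064) in ABC-imKO, with an interaction of -0.79 ± 0.31. Mcm6, another subunit, had an interaction of -1.27 ± 0.68, at an unadjusted p of 0.089.

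Targets of p53 and repair genes of platinum adducts gave 2 of 27 below that p (6.42% of all genes) and a median of -0.28, and none was called in either genotype. Cdkn1a, the p53 target that encodes the cell cycle inhibitor p21, stood at 50.5, 80.2 and 98.2 CPM in naive WT samples and 173, 244 and 187 in WT cisplatin, and at 133, 258 and 313 in ABC-imKO naive and 275, 165 and 267 in ABC-imKO cisplatin. The WT cisplatin samples lie above all WT naive ones, whereas the ABC-imKO groups overlap, and the interaction was -1.40 ± 0.47. The crosslink repair helicase gene Brip1 had -4.36 ± 1.42, with WT naive at 1.01 CPM or less.

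Per3 (chromosome 4, 151003652 to 151044665), a circadian clock gene, had the smallest p among the named genes with the more positive response in ABC-imKO. It stood at 28.7, 29.8 and 34.2 CPM in naive WT samples and 8.7, 8.93 and 7.54 in WT cisplatin, and at 16.3, 18.4 and 14.8 in ABC-imKO naive and 19.6, 15 and 15.7 in ABC-imKO cisplatin. WT cisplatin is the lowest group and WT naive the highest, and the ABC-imKO groups lie between them and overlap each other. It fell in WT (-1.88 ± 0.25, adjusted p = 0.0046) and had 0.02 ± 0.24 (adjusted p = 0.98) in ABC-imKO, and the interaction was 1.90 ± 0.34 (95% interval 1.15 to 2.65; unadjusted p = 0.00014, adjusted p = 0.38). Among the 12 positive named genes of smallest p, WT cisplatin lay wholly below WT naive in 10 (15.2% of the 9267 genes at 10 CPM or more), and ABC-imKO naive wholly below WT naive in 8 (5.28%). ABC-imKO cisplatin lay wholly above ABC-imKO naive in 8 of the 12 (18.4%). For the 12 negative named genes of smallest p, ABC-imKO naive lay wholly above WT naive in 9 (5.37%). These genes were picked by the interaction, which contains the naive levels, so the counts are a description only (2.73% of all genes were more positive and 3.69% more negative at an unadjusted p under 0.05).

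Klf13 (chromosome 7, 63886351 to 63938915), a Krüppel-like transcription factor, stood at 197, 124 and 113 CPM in naive WT samples and 90, 59.8 and 69.2 in WT cisplatin, and at 110.4, 122 and 161 in ABC-imKO naive and 434, 277 and 218 in ABC-imKO cisplatin. ABC-imKO cisplatin lies above all other groups. It rose in ABC-imKO (1.24 ± 0.30, adjusted p = 0.039) and had -0.98 ± 0.30 (adjusted p = 0.11) in WT, and the interaction was 2.22 ± 0.42 (95% interval 1.30 to 3.14; unadjusted p = 0.00023, adjusted p = 0.38). Il15ra (chromosome 2, 11705290 to 11734317), the receptor chain that presents interleukin 15, stood at 33.9, 28.8 and 38.1 CPM in naive WT samples and 51.3, 57.9 and 64.7 in WT cisplatin, and at 31.5, 43.5 and 29.5 in ABC-imKO naive and 199.7, 237 and 132 in ABC-imKO cisplatin. Cisplatin samples lie above naive ones in both genotypes, by far more in ABC-imKO. The response was 0.79 ± 0.24 (adjusted p = 0.11) in WT and 2.44 ± 0.25 (adjusted p = 0.0016) in ABC-imKO, and the interaction 1.66 ± 0.34 (95% interval 0.92 to 2.39; unadjusted p = 0.0004, adjusted p = 0.38). Alox5 (chromosome 6, 116410077 to 116461178), the lipoxygenase that starts leukotriene synthesis, had the same shape. It stood at 116, 120.5 and 108 CPM in naive WT samples and 164, 241 and 183 in WT cisplatin, and at 95.5, 113 and 128 in ABC-imKO naive and 492, 401 and 368 in ABC-imKO cisplatin, with 0.77 ± 0.18 (adjusted p = 0.051) in WT, 1.91 ± 0.19 (adjusted p = 0.0016) in ABC-imKO and an interaction of 1.14 ± 0.26 (95% interval 0.57 to 1.71).

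Trpv4 (chromosome 5, 114622152 to 114658421), a calcium channel opened by swelling and warmth, stood at 9.44, 22.3 and 13.5 CPM in naive WT samples and 3.11, 7.49 and 7.2 in WT cisplatin, and at 1.98, 5.83 and 11.6 in ABC-imKO naive and 43.7, 27.2 and 32.3 in ABC-imKO cisplatin. ABC-imKO cisplatin lies above every other sample. The interaction was 3.76 ± 0.85 (95% interval 1.90 to 5.61; unadjusted p = 0.00091, adjusted p = 0.46). Tmem87b, a Golgi membrane protein, rose in ABC-imKO (1.08 ± 0.21, adjusted p = 0.017) and had 1.56 ± 0.30, and Rnpc3, a protein of the minor spliceosome, rose there as well (0.81 ± 0.20, adjusted p = 0.046) and had 1.39 ± 0.29. Adap2os, an antisense transcript of Adap2 that cannot be told apart from its partner without strand, had 1.24 ± 0.26. It fell in WT (-1.57 ± 0.19, adjusted p = 0.0028), as did the zinc finger gene Zfp788 (-1.20 ± 0.28, adjusted p = 0.046) and Supt20, a subunit of the SAGA coactivator (-1.05 ± 0.16, adjusted p = 0.0086). Interactions of Zfp788 and Supt20 were 1.75 ± 0.39 and 0.97 ± 0.22. Snupn, the import adaptor of spliceosomal particles, and Yod1, a deubiquitinase, had 1.46 ± 0.34 and 1.48 ± 0.37.

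A list of 19 clock genes, with Per3 itself among them, was made after the value of Per3 was seen. Of these 17 were tested, and the median was 0.59. At an unadjusted p under 0.05, 4 were more positive, Per3 included, and 0 more negative. Cry2 (2.73 ± 0.76), Cry1 (2.13 ± 0.84) and Per1 (1.82 ± 0.69), repressors of the clock like Per3, were the other members below that p. Their activator Arntl (-0.11 ± 0.39) and the output genes Dbp (-0.16 ± 0.79) and Tef (0.32 ± 0.73) were not. Collection time was not given in the sources used here, and its part in these values was not tested.

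Glucocorticoid-responsive genes had the most positive median of the pathway lists. Of 19 tested, 5 were more positive in ABC-imKO and 0 more negative at an unadjusted p under 0.05, 14 of 19 were positive, and the median was 1.46. Without WT cisplatin 5 and 6 the median was 0.90, with 13 of 19 positive. Txnip, the most negative member with all 12 samples, went from -0.56 to -1.05. Per1, also a target of the glucocorticoid receptor, stood at 59.4, 54.3 and 43.3 CPM in naive WT samples and 71.3, 33.5 and 26.3 in WT cisplatin, and at 25.4, 65.4 and 40.8 in ABC-imKO naive and 222, 73.8 and 92 in ABC-imKO cisplatin. ABC-imKO cisplatin lies above all other samples, with sample 4 far above 5 and 6. Klf9, a receptor target, had 5.94 ± 1.75, with 114, 28.8 and 8.35 CPM in ABC-imKO cisplatin 4 to 6 and at most 9.93 CPM elsewhere. Tsc22d3, the glucocorticoid-induced leucine zipper, had 1.80 ± 0.69, and Sult1a1, a sulfotransferase, 1.69 ± 0.66. Without WT cisplatin 5 and 6 Per1 had 1.11 and Tsc22d3 0.91. The list score, as above, was 1.55, 0.79 and 0.33 in ABC-imKO cisplatin 4, 5 and 6, between -0.38 and 0.21 in the 6 naive samples, and -0.001, -0.62 and -0.39 in WT cisplatin. Both genotypes thus contribute, by higher values in ABC-imKO and lower ones in WT cisplatin 5 and 6. Il1r2, the decoy receptor of interleukin 1 and a member too, stood at 246, 207 and 8.38 CPM in ABC-imKO cisplatin and at 5.95 CPM or less in the other samples (5.08 ± 2.01).

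**Figure D5:**
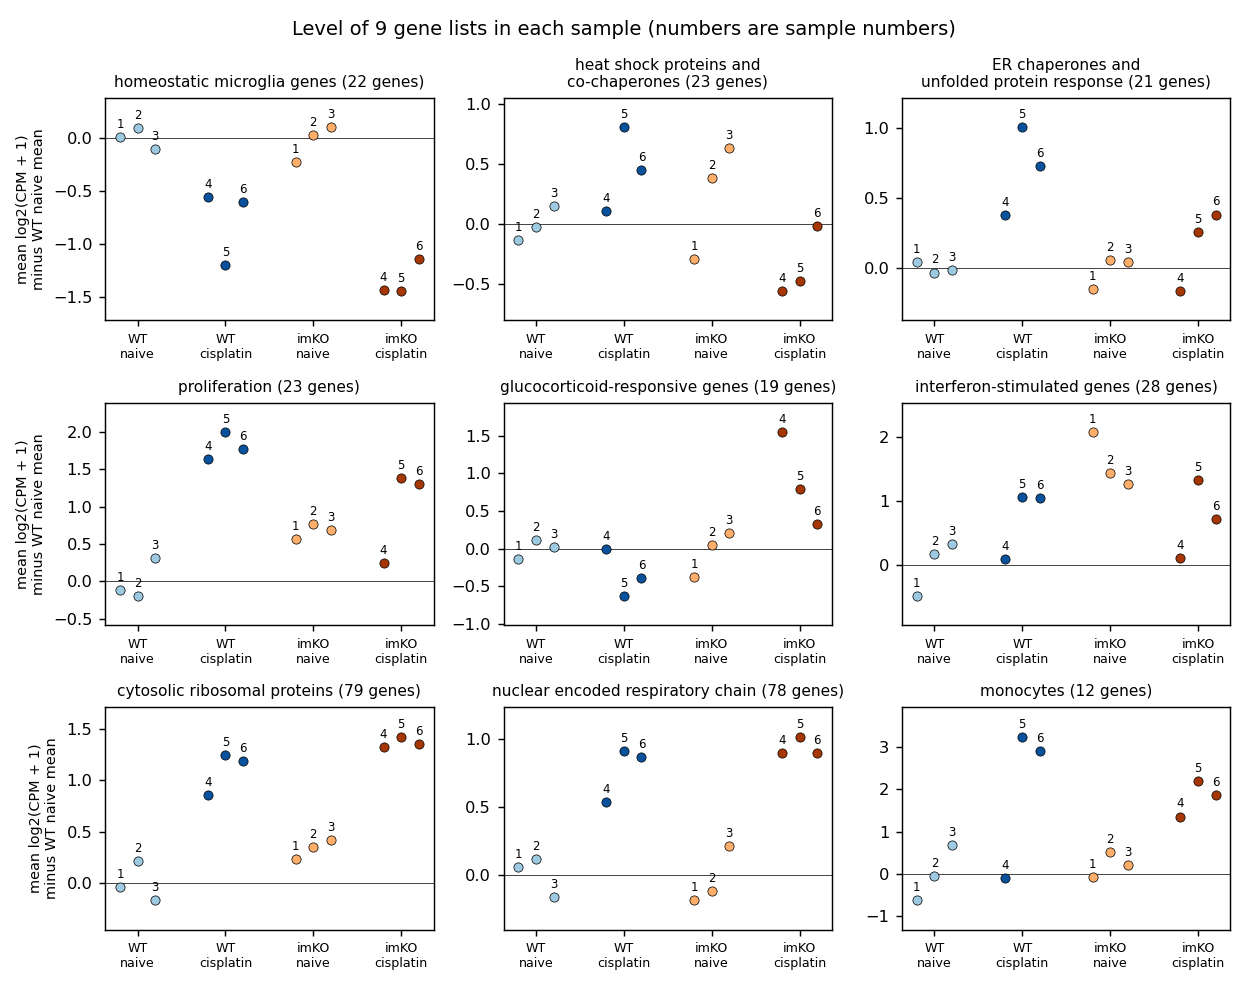
Mean log2(CPM + 1) of the tested members of 9 lists in each sample, minus the WT naive mean, by group, with sample numbers at the points. WT cisplatin 5 and 6 differ from sample 4 in the monocyte, interferon and ER chaperone panels, and ABC-imKO cisplatin 4 is highest in the glucocorticoid panel.

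Apoe (chromosome 7, 19696109 to 19699188), the main lipoprotein component made by glia and a target of the liver X receptors (LXR), stood at 1080, 1271 and 1227 CPM in naive WT samples and 1407, 1556 and 1921 in WT cisplatin, and at 4542, 3330 and 3743 in ABC-imKO naive and 21514, 8852 and 8175 in ABC-imKO cisplatin. Every ABC-imKO sample lies above every WT sample, and ABC-imKO cisplatin lies above ABC-imKO naive. It rose in ABC-imKO (1.73 ± 0.32, adjusted p = 0.015) and had 0.45 ± 0.32 (adjusted p = 0.5) in WT, and the interaction was 1.28 ± 0.45 (95% interval 0.30 to 2.26; unadjusted p = 0.015, adjusted p = 0.67). Without ABC-imKO cisplatin 4, the highest sample, it was 0.69. Apoe and Abcg1 were the 2 of 16 tested genes of LXR targets and cholesterol efflux below an unadjusted p of 0.05, both more positive. The median of the list was 0.018, near that of all genes.

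In cholesterol synthesis and its control by SREBP2, 4 of 26 were more negative and 1 more positive at that p, and the median was -0.32. The list score was 0.77, 0.50 and 0.77 in WT cisplatin 4, 5 and 6 and 0.095, 0.12 and 0.30 in ABC-imKO cisplatin, so these groups do not overlap, while the naive samples lay between -0.23 and 0.14. None of the 26 rose in WT by the adjusted test and 1 did in ABC-imKO (1.96% and 2.65% of all genes). Cyp51 and Sqle, enzymes of sterol synthesis, had -1.17 ± 0.44 and -2.84 ± 1.25. Scap, the escort of SREBP2 to the Golgi, went the other way (1.23 ± 0.41). Lipid uptake and storage gave 3 of 22 more negative and 0 more positive, with a median of -0.31 (0.021 without WT cisplatin 5 and 6). Plin2, the coat protein of lipid droplets, had -1.18 ± 0.43 (-0.46 without those samples), Fabp4 was at 0.925 CPM or less in every sample, and Fabp5, a fatty acid carrier, -3.35 ± 1.30. Fabp5 stood at 12.8 and 37.6 CPM in WT cisplatin 5 and 6 and at 3.07 CPM or less elsewhere, and its interaction without them was -0.08. The scavenger receptor gene Msr1 rose in both genotypes, by 5.65 and 4.97, with an interaction of -0.68 ± 1.19, which turned to 1.80 without those samples.

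Disease-associated microglia genes, a program of activated microglia around lesions, rose in part in both genotypes. Of 26 tested, 6 rose and 0 fell in WT (1.96% and 0.669% of all genes). In ABC-imKO 5 rose and 2 fell (2.65% and 1.96%). The interaction median was -0.31, with 5 more negative (Ch25h, Lgals3, Clec7a, Csf1 and Cst7) and 1 more positive (Apoe) at an unadjusted p under 0.05. It was 0.027 without WT cisplatin 5 and 6, with 1 in each direction. Lgals3, galectin 3, stood at 4.68, 7.9 and 6.04 CPM in naive WT samples and 3.93, 275 and 291 in WT cisplatin, and at 27.5, 21.8 and 12.4 in ABC-imKO naive and 22, 29.6 and 19.2 in ABC-imKO cisplatin. WT cisplatin 5 and 6 are far above all others, and the interaction of -4.74 ± 1.36 became 0.84 without them. Ch25h, which makes 25-hydroxycholesterol, stood at 0.448, 0.0349 and 0.0463 CPM in naive WT samples and 5.17, 45.1 and 6.75 in WT cisplatin, and at 3.43, 1.07 and 0.0158 in ABC-imKO naive and 0, 0.175 and 0 in ABC-imKO cisplatin. All 3 WT cisplatin samples lie above all others, and ABC-imKO cisplatin is at or near 0. Its fitted interaction of -11.38 ± 2.83 has a wide interval (95% interval -17.57 to -5.19). Cst7, a cystatin, rose in WT (2.96 ± 0.43, adjusted p = 0.0075) and had 1.38 ± 0.40 (adjusted p = 0.081) in ABC-imKO, with -1.57 ± 0.56 (-0.90 without WT cisplatin 5 and 6). Clec7a, the receptor dectin 1, had -1.31 ± 0.43 (-0.65 without them). The tetraspanin gene Cd63 rose in both, by 1.49 and 1.84, and Spp1, osteopontin, likewise, by 6.13 and 4.85, with interactions of 0.35 ± 0.32 and -1.28 ± 1.42, the latter turning to 0.33 without WT cisplatin 5 and 6.

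Of 21 genes of endoplasmic reticulum (ER) chaperones 6 rose in WT (1.96% of all genes) and 0 in ABC-imKO (2.65%), with medians of 0.92 and 0.25. For the interaction 0 passed. The interaction median was -0.51, 6 were more negative at an unadjusted p under 0.05 and 0 more positive, and 19 of 21 were negative. Without WT cisplatin 5 and 6 the list median was -0.084, in a setting that leaves 1 WT cisplatin sample. The median of all genes was 0.1 there, against -0.045 with all 12 samples. Sdf2l1, a cofactor of the chaperone BiP, stood at 352, 323 and 439 CPM in naive WT samples and 797, 1248 and 981 in WT cisplatin, and at 375, 332 and 376 in ABC-imKO naive and 366, 531 and 590.0 in ABC-imKO cisplatin. It rose in WT (1.44 ± 0.22, adjusted p = 0.0089) and had 0.46 ± 0.21 (adjusted p = 0.27) in ABC-imKO, and the interaction was -0.98 ± 0.30 (95% interval -1.65 to -0.32; -0.65 without those samples). Calr, calreticulin, stood at 295, 235 and 327 CPM in naive WT samples and 668, 657 and 737 in WT cisplatin, and at 496, 443 and 326 in ABC-imKO naive and 418, 581 and 640.2 in ABC-imKO cisplatin, with all WT cisplatin samples, sample 4 included, above WT naive. Its interaction was -0.89 ± 0.29, and -0.86 without samples 5 and 6. Pdia6, a disulfide isomerase, had -0.84 ± 0.26 and -0.39 in the same order, and Hspa5, BiP itself, -1.06 ± 0.46 and -0.39. Manf (-0.93 ± 0.41) and Creld2 (-1.30 ± 0.58), secreted proteins of the ER stress response, were the other 2, and stood at -0.07 and -0.08 without samples 5 and 6.

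Interferon-stimulated genes had the most negative median of the pathway lists, -1.58 over 28 genes, with 8 more negative and 0 more positive at an unadjusted p under 0.05. Their naive levels differed by genotype. The list score was -0.49, 0.17 and 0.32 in WT naive and 2.08, 1.43 and 1.26 in ABC-imKO naive, with no overlap. After cisplatin it was 0.081, 1.07 and 1.04 in WT and 0.11, 1.33 and 0.72 in ABC-imKO, where the groups overlap. Without WT cisplatin 5 and 6 the median was -0.55 and 0 members were below that p. Ifi207 had -2.44 ± 0.94, Rtp4, a chaperone of receptors, -1.15 ± 0.50, Mx1, an antiviral GTPase, -1.72 ± 0.76, and the antiviral synthetase gene Oas1a -2.01 ± 0.79, which became 0.13 without those samples. Ifi207 and Mx1 had -1.38 and -1.11 without them. The other 4 were Bst2, Oas1g, Rsad2 and Cxcl10, and Oas1g turned from -7.72 to 2.40. Rtp4 stood at 30.6, 30.3 and 20.3 CPM in naive WT samples and 18.4, 20.9 and 26 in WT cisplatin, and at 119.8, 88.6 and 84.1 in ABC-imKO naive and 23, 58.9 and 24.4 in ABC-imKO cisplatin. The ABC-imKO naive samples are the highest, and ABC-imKO cisplatin 5 comes next.

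Antigen presentation gave 1 of 16 below that p, the class II gene H2-Aa, which stood at 53.2 and 79 CPM in WT cisplatin 5 and 6 and at 7.47 CPM or less in the other samples. Its interaction of -9.39 ± 2.6 became 0.11 without them. The immunoproteasome gene Psmb9 had -0.66 ± 0.31. The list median was -0.22, and -0.011 without the 2 samples.

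Toll-like receptor signalling, which the background above ties to cholesterol-rich membranes, had a median of -0.017 over 28 genes, with 1 in each direction below an unadjusted p of 0.05. Tlr4 itself had -0.27 ± 0.23 (95% interval -0.77 to 0.23), an interval within 2-fold. Cd14, its co-receptor, stood at 1338, 1365 and 1072 CPM in naive WT samples and 1459, 1424 and 1373 in WT cisplatin, and at 889, 1182 and 1354 in ABC-imKO naive and 744, 560.1 and 801 in ABC-imKO cisplatin. ABC-imKO cisplatin lies below all others, and the interaction was -0.88 ± 0.26 (95% interval -1.45 to -0.30; unadjusted p = 0.0065, adjusted p = 0.62). The kinase gene Irak2 had 0.94 ± 0.38. Among 18 pain-associated microglial genes the median was -0.23, with Csf1 more negative and the cytokine gene Il18 more positive. Among 12 genes of purinergic receptors and ATP handling 0 were below that p and the median was 0.22. P2rx4, the ATP-gated channel studied in nerve injury pain, had 0.35 ± 0.25 (95% interval -0.19 to 0.89), and Entpd1, which breaks down extracellular ATP, -0.59 ± 0.33, after falls in both genotypes.

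Ribosomal protein genes, the broadest response of all, differed little between genotypes. Of 79 tested, 61 rose in WT (1.96% of all genes) and 58 in ABC-imKO (2.65%), with medians of 1.13 and 1.06. The interaction median was -0.10, with 2 of 79 more negative at an unadjusted p under 0.05 and 29 positive values. Rpsa had -0.58 ± 0.20, and Rpl3l, a paralog of muscle, was the other one, at 1.12 CPM or less in every sample. Rpl35a, above that p, had 0.63 ± 0.30. Rpl38, a large subunit protein, rose by 2.18 and 2.27. Of 78 nuclear encoded respiratory chain genes 28 rose in WT (1.96% of all genes) and 45 in ABC-imKO (2.65%), with medians of 0.81 and 1.00. Their interactions were positive in 65 of 78, with a median of 0.20 and 2 below that p. The median was 0.49 without WT cisplatin 5 and 6, with 73 of 78 positive. Uqcrb, a subunit of complex III, stood at 24.4, 24.1 and 21.4 CPM in naive WT samples and 39.2, 45.9 and 46.5 in WT cisplatin, and at 21.4, 23.3 and 25.3 in ABC-imKO naive and 64.1, 65.6 and 63.5 in ABC-imKO cisplatin. Cisplatin samples lie above naive in both genotypes and highest in ABC-imKO, and it rose in both, by 0.91 and 1.46. Its interaction was 0.55 ± 0.24, and that of Cox7a2 of complex IV was 0.66 ± 0.30. Of 11 mitochondrially encoded genes mt-Nd1 (0.51 ± 0.20) and mt-Cytb (0.72 ± 0.26) were more positive at that p, and the list median was 0.24.

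Of 19 glycolysis genes 6 rose in WT (1.96% of all genes) and 5 in ABC-imKO (2.65%), and the interaction median was -0.082. The hexokinase gene Hk3 (-1.50 ± 0.63) was the 1 member below an unadjusted p of 0.05, and the regulator gene Pfkfb4 had 0.46 ± 0.26. Gapdh rose in both, by 1.62 and 1.43. Of 32 lysosome genes 3 were more negative and 1 more positive, and the median was -0.088. Glb1, beta-galactosidase, had -0.76 ± 0.35, and Ctse, cathepsin E, was the more positive one (2.30 ± 0.96). Hexa, a hexosaminidase subunit, stood at 1706, 1680 and 1473 CPM in naive WT samples and 913, 607 and 803 in WT cisplatin, and at 1356, 1601 and 1911 in ABC-imKO naive and 435, 398 and 485 in ABC-imKO cisplatin. It fell in both genotypes, ABC-imKO cisplatin lies below WT cisplatin without overlap, and the interaction was -0.82 ± 0.25 (95% interval -1.38 to -0.26; unadjusted p = 0.0077, adjusted p = 0.62).

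Markers of other cell types were summed in CPM. The 10 microglia identity genes summed to 49900 to 56940 CPM in WT naive, 29700 to 37570 in WT cisplatin, 39210 to 51620 in ABC-imKO naive and 20540 to 24120 in ABC-imKO cisplatin, with none at 0 in a group. These sums include Cx3cr1, the gene that drives the recombinase, with group means of 9717, 6140, 4087 and 2258 CPM in the same order. The 12 monocyte markers summed to 3.78, 17.4 and 73.4 CPM in WT naive and 16.8, 42.2 and 29.3 in ABC-imKO naive. They reached 239, 1179 and 790.5 CPM in WT cisplatin and 797, 1252 and 843 in ABC-imKO cisplatin, most of it fibronectin (Fn1). For the interaction 0 of the 12 were below an unadjusted p of 0.05, with 4 positive and 8 negative. Single markers had unlike shapes in the cisplatin samples. Ccr2 was high in WT cisplatin 5 and 6 only, while Chil3 stood at 50.1 and 45.3 CPM there, 0.114 CPM in WT cisplatin 4 and 117, 108 and 77.5 CPM in ABC-imKO cisplatin. Perivascular macrophage markers summed to 146 to 346 CPM with Lyve1 at 0 in every group. Neutrophil markers summed to 258 to 779 CPM, nearly all of it Csf3r, with Ly6g, Ngp and Retnlg at 0 in every group. B cell markers summed to 295 to 1517 CPM with Ms4a1 at 0, and T and NK cell markers to at most 5.55 CPM with Cd3e at 0. Astrocyte and oligodendrocyte markers summed to 143 to 437 and 229 to 894 CPM, endothelial markers to 2.04 to 52.8 CPM and neuron markers to at most 19.3 CPM. The interaction medians of 3 marker lists lay below those of all pathway lists. Over 3 tested neutrophil markers the median was -5.45 (0.62 without WT cisplatin 5 and 6), over 6 perivascular and border macrophage markers -4.26 (-0.76 without them) and over 4 endothelial markers -1.84 (-0.10 without them). The monocyte list moved the other way past 0. Over its 12 markers the median was -0.77, and it was 5.10 without WT cisplatin 5 and 6, with 12 positive. Pf4, Cbr2 and Folr2 of the macrophage list and Flt1 of the endothelial list were the members below an unadjusted p of 0.05, all more negative. Pf4 stood at 41.2 and 32 CPM in WT cisplatin 5 and 6 and at 1.53 CPM or less elsewhere. The part of other cells in the interactions was not tested, and the values given without WT cisplatin 5 and 6 are no test of it.

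Genes near the altered loci were also counted. Within 5 Mb of Abcg1 11 of 154 genes at 10 CPM or more were below an unadjusted p of 0.05 (7.14%), within 5 Mb of Abca1 1 of 19 (5.26%) and of Cx3cr1 3 of 48 (6.25%), beside 6.32% of all such genes. The Abcg1 window on chromosome 17 includes Hspa1b, Hspa1a, C4b, H2-Aa and Cdkn1a.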

How the data were processed

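RNA-seq counts per gene, as the authors deposited them, were whole numbers for 53715 genes in each sequencing run, and 53620 genes carried a symbol. Per the submitters' processing notes, bcl2fastq, FastQC 0.11.17, MultiQC 1.7, STAR 2.6.0a, DESeq2 and the mouse build GRCm38 were used, with no role given. The sources used here give no counting tool, annotation or strand setting. The 6 runs of a sample (3 technical replicates on 2 lanes) were summed, since they are not independent samples.

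The 12 samples were fitted together in edgeR 4.0.16 (R 4.3.3) with 4 group means and 8 residual degrees of freedom, TMM scaling (factors 0.899 to 1.1), filterByExpr by group and the quasi-likelihood F test, two-sided. Adjusted p-values are Benjamini-Hochberg values across the 17928 genes in the fit, called at 0.05. An SE is the log2 fold change divided by the square root of F, and intervals are 95% intervals from the same test. CPM use TMM library sizes. The fit was tested on simulated data. Named genes were Abca1, Abcg1 and Cx3cr1, the 12 of smallest p in each direction at a group mean of 10 CPM or more, and the 2 of smallest p in each of 25 pathway lists. Gene models, clone names and pseudogenes were left out of these picks. Other genes were named after their values were seen. Some genes that the rule or a list takes in are not reported here. A list score is the mean log2(CPM + 1). The comparison, its members and the lists, which include 12 lists of cell markers, were chosen with earlier results of these data known. Promoters are from the RefSeq table of GRCm38.p6. Alternatives were DESeq2 1.42.0, limma-voom (limma 3.58.1), all 17 samples, robust dispersions, relative log expression scaling, other filters, replicate blocks, leaving out samples or technical replicates and, added after seeing the data, the adjusted deviance form of the quasi-likelihood test. Figures were drawn with matplotlib 3.10.9.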

Additional observations from a re-analysis of the deposited data

How the results depend on the processing

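The count of genes called for the interaction was 0 with all 17 samples, robust dispersions, the adjusted deviance form, relative log expression scaling, the sample number as a replicate block and without WT cisplatin 5 and 6. It was 244 with DESeq2, 1 with limma-voom (Olfml3), 1 with no filter (Hspa1b), 2 with the stricter filter of 10 CPM in 3 samples (Olfml3 and Hspa1b), and 50 with 36 libraries and the technical replicate number as a replicate block, a fit that takes technical replicates as independent. Leaving out 1 sample or technical replicate gave 0 to 1 (Lgals3 without WT cisplatin 4, Olfml3 without ABC-imKO cisplatin 6). Of the 244, 207 had an unadjusted p under 0.05 in edgeR, and 32 were also among the 50. Genes at an unadjusted p under 0.05 numbered 1754 of 31609 with DESeq2, 2145 of 33070 with no filter and 578 of 9233 with the stricter one. The main fit gave 1151 of 17928 (6.42%). These counts rest on unlike numbers of genes, and DESeq2 was run without the filter on low counts. Genes called in WT and in ABC-imKO numbered 2103 and 2447 with DESeq2, 1026 and 1387 with the stricter filter, 1844 and 2175 with 36 libraries, and 107 and 280 with the sample number as a replicate block. In WT the adjusted deviance form gave 746, leaving out WT cisplatin 5 and 6 gave 2, and leaving out 1 sample or technical replicate gave 58 to 819, and in ABC-imKO 195 to 926. The causes of these shifts were not tested. Same-numbered samples of the 2 genotypes had correlations of -0.195 to 0.192 in their deviations from group means (across 6783 genes). Pairs with unlike numbers had -0.229 to 0.198, so no pairing by number was seen. With 3 samples a group these values cannot settle whether the numbers pair the samples. With relative log expression scaling the split of higher and lower calls in ABC-imKO was 434 and 409 instead of 475 and 352. The median interaction of all genes was -0.209 with DESeq2 and 0.1 without WT cisplatin 5 and 6, against -0.045. Among 67 named genes 32 were called under at least 1 alternative (29 by DESeq2), and the sign turned only without WT cisplatin 5 and 6, for H2-Aa (0.111), Lgals3 (0.845), Oas1a (0.126) and Cfp (2.819). Intervals cover 3 samples a group, and depth limits genes under 10 CPM.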
